A study of Mus musculus with 6 samples.

Results

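The iron uptake and storage genes are the 10 genes Tfrc, Trf, Slc11a2, Steap3, Slc25a37, Fth1, Ftl1, Aco1, Ireb2 and Hamp, which were listed by name and not by their values. They were measured by 17 of the 39429 probes of a mouse expression array, on which 20659 genes carry a symbol. Cells take up iron bound to transferrin through the transferrin receptor, reduce it in the endosome, pass it to the cytosol and the mitochondria, and store the surplus in ferritin. Where iron is scarce, iron regulatory proteins bind mRNA stem loops called iron responsive elements, and this holds back translation of the ferritin mRNAs and stabilises the mRNA of the transferrin receptor. In the mouse spleen, red pulp macrophages recycle the iron of old red cells, and red cell precursors take up much of the iron that goes into heme.

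The SA-H group (arrays 4, 5 and 6) consisted of male ICR mice, an outbred strain, that were 8 weeks old and received cyclophosphamide at 40 mg/kg for 5 days and then schisandrol A (SA), a lignan of Schisandra fruit, by gavage. The MOD group (arrays 1, 2 and 3) was the cyclophosphamide model in mice of the same strain, sex and age, with no SA. Cyclophosphamide is an alkylating drug that kills dividing cells and so lowers blood cell formation, and it was shared by both groups. No array of untreated mice was analysed here. The labels give SA at 1000 mg/kg per day and day 28 for SA-H and day 5 for MOD, while their protocol has the MOD mice on water for the same 4 weeks. Where the day labels hold, group and day of sampling cannot be told apart. The animal experiment of the paper used a molar dose and a shorter course. Whether the 3 arrays of a group stand for 3 mice is not stated, so that each p-value weighs the groups against a spread that may be only technical.

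The 6 arrays differed in brightness within both groups. The share of spots well above background was 44.7%, 73.9% and 45.7% on SA-H arrays 4, 5 and 6 and 43.1%, 72.2% and 49.4% on MOD arrays 1, 2 and 3. The intensity at the 75th percentile, to which each array was scaled, was 220, 868 and 433 on the SA-H arrays and 626, 840 and 599 on the MOD arrays. SA-H array 6 was scanned on the same day as MOD arrays 1 and 3, SA-H array 4 on the day of MOD array 2, and SA-H array 5 alone on another day. Spleen is the labelled tissue, although liver is mentioned in the extraction protocol. All 8 B cell markers and all 8 T cell markers were measurable, against 2 of 12 liver markers, and albumin was well above background on 1 of 3 SA-H arrays and 0 of 3 MOD arrays. A deposited table of processed values also exists. After each probe was centred, its column correlated with the array of the same label at r = 0.17, 0.03 and 0.33 for SA-H arrays 4, 5 and 6 and at 0.48, 0.40 and −0.28 for MOD arrays 1, 2 and 3, across 14331 probes. Only for SA-H array 6 and MOD array 1 was the own column the best match. The results below come from the scanner files, and the table is given apart.

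For Aco1, the 1 member past the limits used here, and for both ferritin genes, a stretch of 60 bases upstream of an annotated start is shown. The bases are those of RefSeq on the mouse build GRCm38.p6. The Aco1 stretch is chr4:40143205-40143264 on the plus strand and the Fth1 stretch is chr19:9982586-9982645 on the plus strand, upstream of the second of 2 annotated starts. The Ftl1 stretch is chr7:45459906-45459965 on the minus strand. Capitals mark the letters CCAAT, searched on both strands, which read ATTGG where they lie on the other strand.
Aco1: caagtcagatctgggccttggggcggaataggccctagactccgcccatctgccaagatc
Fth1: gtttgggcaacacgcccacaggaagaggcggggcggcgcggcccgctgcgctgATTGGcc
Ftl1: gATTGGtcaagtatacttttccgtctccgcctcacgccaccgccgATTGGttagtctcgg
The Fth1 window shown held this motif 1 time and the Ftl1 window 2 times within 250 bases upstream, and the Aco1 window 0 times. The window of the other Fth1 start held it 0 times, and the Fth1 window shown was picked because it held the motif. The motif was found in 33.83% of 32817 such windows in the mouse annotation, and a match is a description of the letters only. Windows were given for 7 of the 10 genes.

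**Figure D1:**
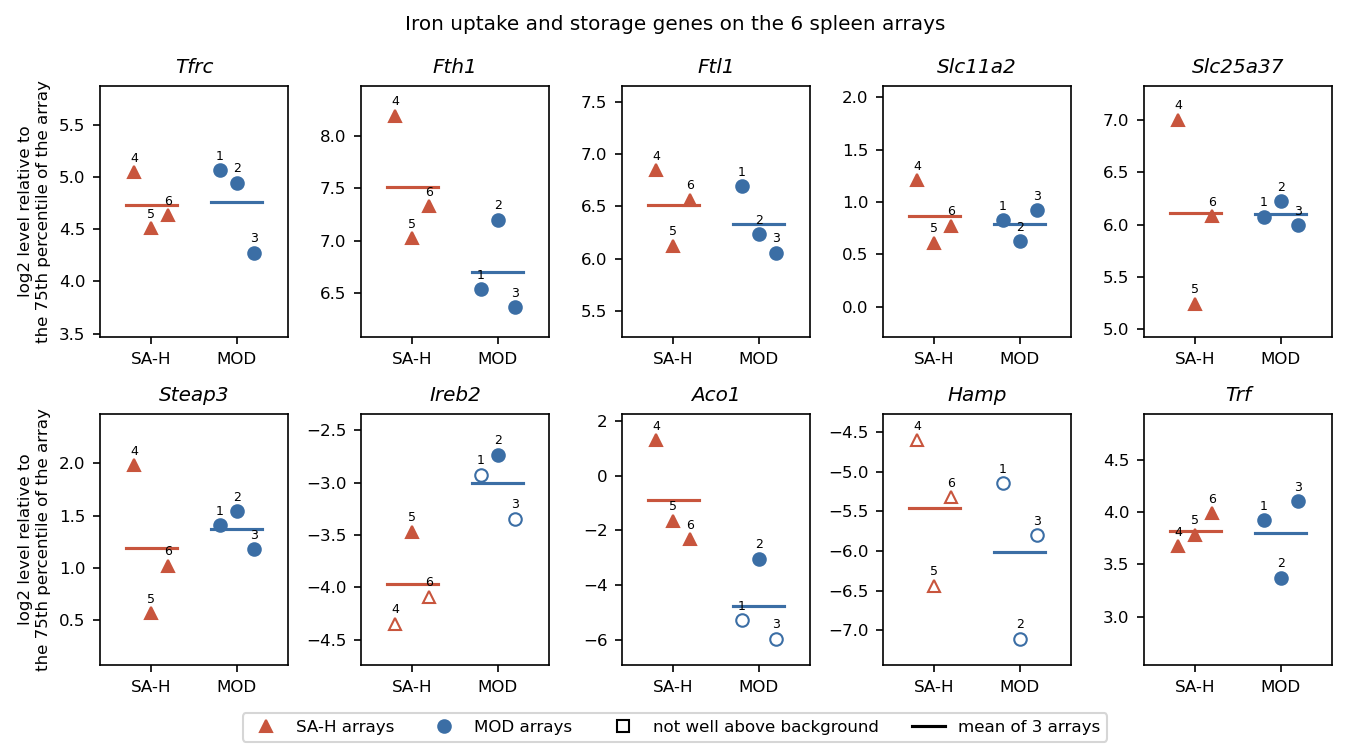
Log2 level of each of the 10 genes on each array, relative to the 75th percentile of that array, with SA-H arrays (triangles, numbered 4 to 6) left of MOD arrays (circles, numbered 1 to 3) and a bar at the mean of 3 arrays; open symbols mark arrays on which the probe was not well above background. The groups are apart for Aco1 and Ireb2, whose MOD or SA-H symbols are partly open, and overlap in the other 8 panels.

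A gene was tested if 1 of its probes was well above background throughout at least 1 group, which held for 8 of the 10 genes (Ireb2 and Hamp were too dim). With limits of 2 for the fold change and 0.05 for the unadjusted p, 1 of the 8 genes differed, namely Aco1, which was higher in SA-H. Aco1 was tested only because its probe was well above background on all SA-H arrays, the group in which it was higher, and where all 6 arrays had to be above background it was not tested and 0 members passed. Its call is therefore given as a description. Of all 14474 genes and unnamed targets tested, 12.8% met the same limits, 7.74% higher in SA-H and 5.03% lower. The groups of 1 of the 8 genes did not overlap (Aco1), and those of 32.7% of all tested genes did not. In limma, 0 of the 14474 had an adjusted p under 0.05, with a smallest value of 0.0712, while 3377 (23.3%) had an unadjusted p under 0.05. An analysis of variance without moderation also gave 0 at the adjusted limit. The median change of the 8 genes was 0.04 on the log2 scale, beside −0.04 over all tested genes.

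Among the uptake genes, Tfrc encodes the transferrin receptor, which brings transferrin-bound iron into the cell. Its log2 level relative to the 75th percentile was 5.04, 4.51 and 4.63 on SA-H arrays 4, 5 and 6 and 5.06, 4.94 and 4.27 on MOD arrays 1, 2 and 3. The highest values of both groups were nearly equal, the lowest value was that of MOD array 3, and the groups overlapped. The change was −0.03 (SE 0.30, 95% interval −0.74 to 0.68, limma adjusted p = 0.958). This probe was printed in 10 spots, and a dimmer probe of Tfrc changed by −0.06 (SE 0.44). The interval is wide enough that a moderate change in either direction was not detectable with 3 arrays a group.

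Trf encodes transferrin, the iron carrier of plasma, which is made mainly in the liver. Its brightest probe stood at 3.67, 3.79 and 3.99 in SA-H and 3.92, 3.37 and 4.10 in MOD, on the same scale. All SA-H values lay inside the MOD range, and the change was 0.02 (SE 0.27, 95% interval −0.62 to 0.66, limma adjusted p = 0.976). The dimmer probe of Trf gave 0.86, 2.54 and 2.60 in SA-H and 2.89, 2.66 and 3.06 in MOD. All 3 SA-H values of this probe were below the MOD values, array 4 by far the most. Its change was −0.87 (SE 0.48, limma adjusted p = 0.300 over all tested probes), and −0.30 without SA-H array 4.

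Slc11a2 encodes the transporter DMT1, which moves iron out of the endosome. Its log2 level was 1.21, 0.61 and 0.77 in SA-H and 0.83, 0.63 and 0.92 in MOD. The SA-H arrays held both the highest and the lowest value. The change was 0.07 (SE 0.25, 95% interval −0.53 to 0.67, limma adjusted p = 0.879).

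Steap3, the reductase that turns ferric into ferrous iron in the endosome of red cell precursors, stood at 1.98, 0.57 and 1.02 in SA-H and 1.41, 1.54 and 1.18 in MOD. SA-H array 4 was above all MOD arrays and SA-H arrays 5 and 6 were below all of them. The change was −0.19 (SE 0.38, 95% interval −1.09 to 0.71, limma adjusted p = 0.783). A further probe of Tfrc and the second probes of Slc11a2 and Steap3 were not tested. Each was well above background only on SA-H array 5 and MOD array 2, the 2 arrays with the largest share of spots above background. Most of their values were read near the background. The difference of the means was −0.89 for this Tfrc probe, with every SA-H value below every MOD value. It was 0.67 for Slc11a2 and −0.44 for Steap3, where the groups overlapped.

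Slc25a37 encodes mitoferrin 1, which carries iron into the mitochondria of red cell precursors for heme synthesis. Its brightest probe read 7.004, 5.25 and 6.08 in SA-H and 6.08, 6.22 and 5.998 in MOD. The MOD arrays lay within a narrow range (SD 0.115), and SA-H arrays 4 and 5 lay on either side of it (SD 0.879 in SA-H). The change was 0.01 (SE 0.43, 95% interval −1.01 to 1.03, limma adjusted p = 0.990). Its dimmer probe read 0.10, −0.50 and 0.15 in SA-H and 0.90, 0.69 and 0.71 in MOD, and every SA-H value was below every MOD value. The change of that probe was −0.85 (SE 0.26, limma adjusted p = 0.133), short of a fold of 2.

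The storage genes encode the heavy and light chains of ferritin. The heavy chain, from Fth1, oxidises iron as it enters the shell. Fth1 stood at 8.19, 7.02 and 7.33 in SA-H and 6.53, 7.20 and 6.36 in MOD. SA-H array 4 was the highest, SA-H array 6 was also above all MOD arrays, and MOD array 2 was above SA-H array 5. The mean was 7.51 ± 0.606 in SA-H and 6.70 ± 0.444 in MOD (SD, n = 3 each). The change was 0.82 (SE 0.38, 95% interval −0.09 to 1.72, limma adjusted p = 0.245), a 1.76-fold difference that missed both limits. Without MOD array 2 it was 1.07 and without SA-H array 5 it was 1.06, which met the fold and unadjusted p limits in both cases, and without SA-H array 4 it was 0.48. With quantile normalization the Fth1 change was 0.10. A list of 18 ribosomal protein genes, read as a sign of RNA quality, had a median change of 0.59 (0.25 without SA-H array 4 and 0.06 with quantile normalization), with centred medians of 1.06, −0.21 and 0.19 in SA-H and −0.28, −0.09 and −0.38 in MOD. Their part in the Fth1 value was not tested.

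Ftl1, for the light chain that helps the iron core to form, was read by probes that differed from each other. The brightest probe stood at 6.85, 6.13 and 6.57 in SA-H and 6.70, 6.24 and 6.06 in MOD, and the groups overlapped. Its change was 0.18 (SE 0.30, 95% interval −0.51 to 0.88, limma adjusted p = 0.724). The dimmer probe stood at 2.74, 3.50 and 3.91 in SA-H and 4.51, 4.29 and 4.56 in MOD, and every SA-H value was below every MOD value. Its change was −1.07 (SE 0.33, limma adjusted p = 0.134), past the fold and unadjusted p limits that 5.62% of the 16901 tested probes passed in that direction and 12.9% in either. Without SA-H array 4 it was −0.75, which is short of a fold of 2. The ferritin genes have many processed pseudogenes of near-identical sequence. The probe sequences are not in the files used here, and which transcripts each probe binds was not tested.

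**Figure D2:**
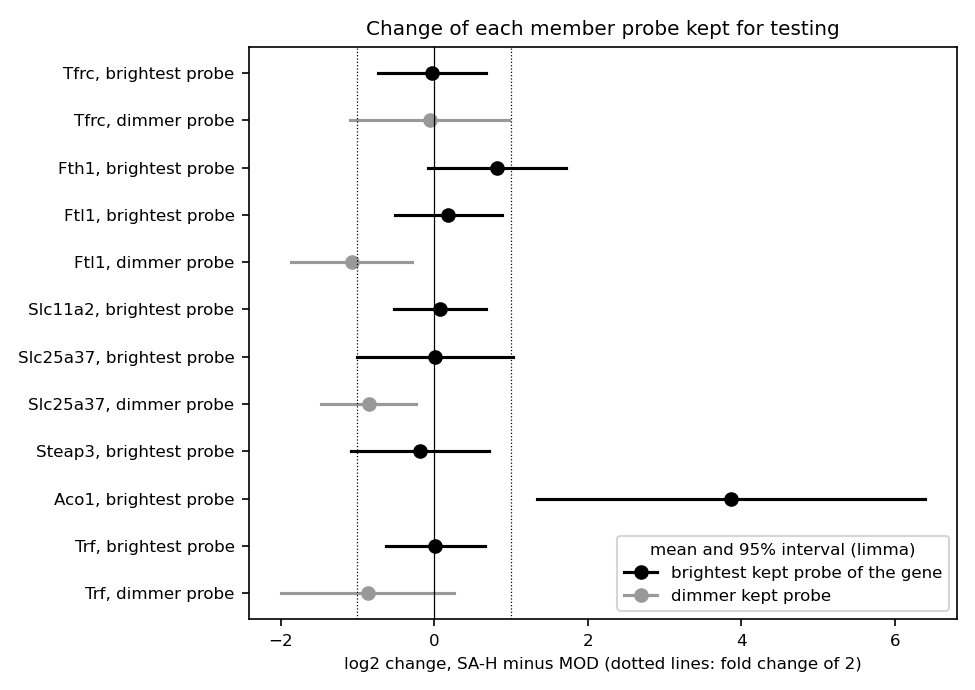
Log2 change (SA-H minus MOD) of the 12 member probes that were tested, with 95% intervals from limma; black marks the brightest probe of a gene, grey a dimmer one, and dotted lines mark a fold change of 2. The dimmer probes of Ftl1, Slc25a37 and Trf lie to the left of the brightest probes of the same genes, and Aco1 lies far to the right.

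The 4 genes with several tested probes were compared probe against probe. The change of the dimmer probe minus that of the brightest was −1.26 for Ftl1, −0.88 for Trf, −0.86 for Slc25a37 and −0.03 for Tfrc. For the first 3 genes the gap between the probes did not overlap between the groups, and the exact two-sided permutation p was 0.1, the smallest that 3 against 3 arrays can give (adjusted p = 0.133 over 4 genes). It was 1 for Tfrc. Without SA-H array 4 the differences were −0.77 for Ftl1, −0.39 for Trf and −0.51 for Slc25a37, in the same direction and more than 1.5 times smaller. For those 3 genes the value of a change depends on which probe stands for the gene. With the mean of the tested probes, the gene changes were −0.44 for Ftl1, −0.43 for Trf and −0.42 for Slc25a37.

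Aco1 encodes the cytosolic aconitase, which becomes iron regulatory protein 1 when it loses its iron-sulfur cluster. Its single probe, in a gene annotated at chr4:40143265-40199009, had a log2 level of 1.31, −1.65 and −2.33 on SA-H arrays 4, 5 and 6 and of −5.28, −3.04 and −5.96 on MOD arrays 1, 2 and 3. All 3 SA-H values were above all MOD values, and the spread was wide in both groups. The processed intensity was 544, 277 and 86.1 in SA-H and 16.2, 102 and 9.65 in MOD. The probe was well above background on 3 of 3 SA-H arrays and on 1 of 3 MOD arrays, array 2, whose intensity was above that of SA-H array 6 before scaling.

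The mean log2 level of Aco1 was −0.89 ± 1.93 in SA-H and −4.76 ± 1.53 in MOD (SD, n = 3 each). The fitted change was 3.87 (SE 1.08), and it takes the background values of MOD arrays 1 and 3 at face value. With these 2 arrays set to the lowest signal well above background on each (−2.98 and −3.75), the level in SA-H was 5.16-fold higher, and 2.41-fold higher without SA-H array 4. These folds are not lower bounds. Ireb2 read −2.93 and −3.35 on MOD arrays 1 and 3, above the levels used, and was not well above background there. In limma the unadjusted p of Aco1 was 0.0086 and the adjusted p 0.114. Aco1 passed the fold and unadjusted p limits and not the adjusted limit. Because its probe was tested only through SA-H, these values describe the arrays and are no support for a difference. SA-H array 4 and MOD array 2, which were scanned on 1 day and both had the probe well above background, differed by 4.35. On the other day with both groups no MOD array measured the probe. Leaving out 1 array at a time gave fitted changes of 2.77 to 4.73, the lowest without SA-H array 4. Over 16 other settings on the scanner values the change was 2.17 to 4.73 and the limma adjusted p 7.41e-08 to 0.455. It passed the fold and unadjusted p limits in 15. All of these settings read the same single probe, and they are not separate support. The lowest adjusted p came with median scaling. There the SE was 0.52 for Aco1 and 0.50 for Tfrc, beside 1.08 for Aco1 in the main fit. That p thus weighs Aco1 against a spread nearly common to the members and not its own. With scan day as a block in the fit, the limma adjusted p of Aco1 was 0.0142 (SE 0.37), also under 0.05. In that fit 1075 genes had an adjusted p under 0.05, and SA-H array 5 adds nothing to it. In the analysis of variance the p of Aco1 was 0.053.

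Ireb2, for iron regulatory protein 2, was well above background only on SA-H array 5 and MOD array 2. Its log2 level was −4.35, −3.47 and −4.09 in SA-H and −2.93, −2.73 and −3.35 in MOD. The SA-H values were all below the MOD values, most of them read near the background. The difference of the means was −0.97. In limma on all probes without a filter on dim ones its adjusted p was 0.512. Hamp encodes hepcidin, the liver hormone that lowers iron export from cells. Its probe was well above background on 0 of 3 SA-H arrays and 0 of 3 MOD arrays, with processed intensities of 9.06 to 10.8 in SA-H and 6.09 to 17.7 in MOD. No fold is given for Hamp.

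The order of the 3 SA-H arrays was shared by most of the genes. Array 4 was above array 6 and array 6 above array 5 for 6 of the 8 tested genes, the exceptions being Aco1 and Trf, and for 33.4% of all tested genes. This was looked at after the values were seen. The SD among the SA-H arrays exceeded that among the MOD arrays for 6 of 8 genes, beside 66.9% of all tested genes. The centred median of 21 erythroid markers, genes of red cell precursors, was 0.39, −0.69 and −0.17 on SA-H arrays 4, 5 and 6 and 0.39, 0.27 and 0.12 on the MOD arrays, with a median change of −0.48 (−0.78 with SA-H array 4 left out, −0.25 with SA-H array 5 left out). Of these 21 genes 4 passed the fold and unadjusted p limits, all lower in SA-H, among them Epb42 (−1.62). Markers of cell division had a median change of −0.79 (4 of 12 past the limits, all lower) and fat markers one of −2.42 (4 of 6, all lower). These 4 fat markers were tested only through MOD, the group in which they were higher, so that their calls are a description. Where all 6 arrays had to be above background, 2 fat markers were tested, 0 passed and their median change was −0.82. The fat markers had centred medians of −2.55, −0.28 and −0.40 in SA-H and 1.51, 1.18 and 0.86 in MOD, and without SA-H array 4 their median change was −1.49. The erythroid, division and ribosomal medians of the SA-H arrays stood in the same order as the 6 genes. So did those of 7 neutrophil markers (0.86, −0.47 and −0.09 on SA-H arrays 4, 5 and 6). The intensities at the 75th percentile and the medians of the fat, T cell and liver markers stood in the opposite order. The part of each of these in the member values was not tested. In whole spleen, fewer cells of a type and less RNA per cell cannot be told apart.

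Within the scan days that hold both groups, the 8 genes had a median difference of 0.01 on the day of SA-H array 6 and of 0.59 on the day of SA-H array 4. Fth1 differed by 0.88 and 0.99 on these days, close to its value over all arrays. Slc25a37 differed by 0.04 and 0.78, Slc11a2 by −0.10 and 0.58, Steap3 by −0.27 and 0.44 and Ftl1 by 0.19 and 0.61. Tfrc differed by −0.03 and 0.10 and Trf by −0.02 and 0.30. The second of these days holds 1 array of each group, and no spread can be given for it.

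In the deposited value table, whose columns match their arrays poorly, some of the uptake genes looked different. Its log2 values for the brightest Tfrc probe were 10.6, 10.2 and 10.5 in SA-H and 12.7, 12.3 and 11.4 in MOD. Those for Slc25a37 were 12.7, 11.1 and 12.3 in SA-H and 14.6, 14.2 and 13.4 in MOD. Steap3 read 6.51, 5.37 and 6.10 in SA-H and 8.76, 8.41 and 7.94 in MOD. In each of these genes every SA-H column was below every MOD column, and the changes were −1.73 for Tfrc, −2.03 for Slc25a37 and −2.37 for Steap3. The limma adjusted p in the table was 0.0308 for Tfrc, 0.047 for Slc25a37 and 0.0159 for Steap3, in a table in which 1779 genes had an adjusted p under 0.05. Slc11a2 changed by −0.54, also without overlap, while Trf changed by 0.49 and its columns overlapped. Aco1 changed by 0.40 there and its columns overlapped, as did those of both ferritin genes (Fth1 −0.20, Ftl1 −0.17). The erythroid markers had a median change of −2.42 in the table, with 20 of 21 past the fold and unadjusted p limits, all lower in SA-H. Neither the paper nor the labels say how the table was made, and whether the table or the scanner files give the level of these genes was not tested.

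**Figure D3:**
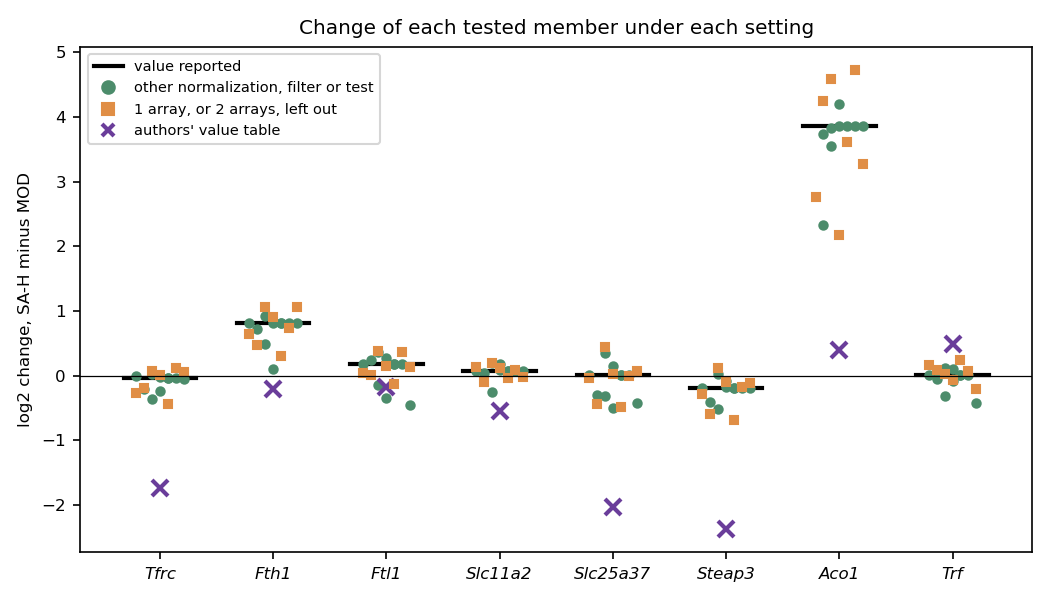
Log2 change (SA-H minus MOD) of each tested gene under each setting; the black bar is the value reported, circles are other normalizations, filters or tests, squares are fits with 1 or 2 arrays left out, and crosses are the deposited value table. Aco1 stays above 2 in every setting but the table, and Tfrc, Slc25a37 and Steap3 lie between −0.68 and 0.44 except in the table, where they are near −2.

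Other genes of iron handling were taken from 5 lists, of which 52 genes were tested. The fold and unadjusted p limits were passed by 8 of them (15.4%, beside 12.8% of all tested genes), 7 lower in SA-H and Cdc14a higher. Of these 8 only Isca1 (−1.50) also passed in the deposited value table. Among 13 tested genes of uptake and intracellular handling, 3 passed, all lower, and the median change was −0.31. Ncoa4, the receptor that takes ferritin to the lysosome for breakdown, had log2 levels of 3.49, 3.23 and 3.47 in SA-H and 4.82, 4.53 and 4.57 in MOD. All SA-H arrays were below all MOD arrays by a wide margin, and its change was −1.25 (SE 0.23, limma adjusted p = 0.0795). Pcbp2, a chaperone that hands iron to ferritin, stood at 2.53, 2.72 and 2.20 in SA-H and 3.65, 3.71 and 3.82 in MOD, and its change was also −1.25 (SE 0.24, limma adjusted p = 0.0809). With the mean of its probes the change of Pcbp2 was −0.59 and under a fold of 2. Snx3, which takes part in recycling the transferrin receptor, changed by −1.48 (SE 0.49, limma adjusted p = 0.147). Exoc6 (−1.08), a subunit of the exocyst, and Fbxl5 (−0.96), a sensor that marks iron regulatory protein 2 for breakdown, did not pass. In the value table the changes were −0.78 for Ncoa4, −0.15 for Pcbp2 and −0.10 for Snx3.

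**Figure D4:**
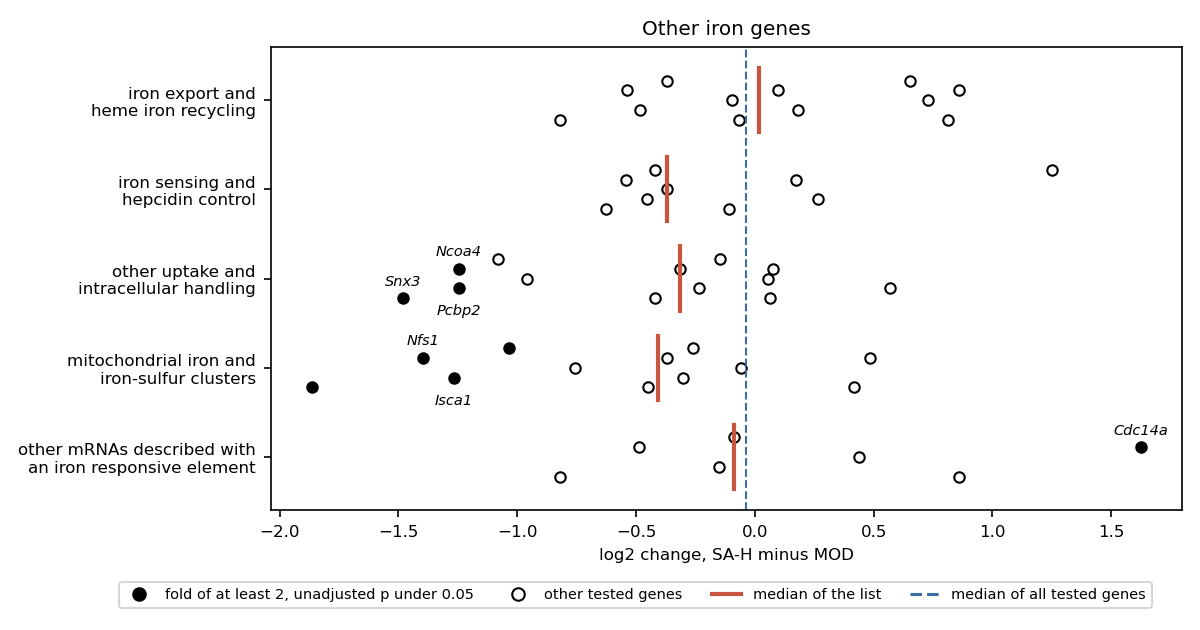
Log2 change (SA-H minus MOD) of each tested gene of 5 lists of other iron genes; filled points passed a fold change of 2 and an unadjusted p of 0.05, and those described in the text carry their name, red bars mark the list medians and the dashed line the median of all tested genes. The 7 filled points at the left belong to intracellular handling and to the mitochondrial list, and Cdc14a is the 1 filled point at the right.

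All 12 genes of mitochondrial iron and iron-sulfur clusters were tested, 4 of them passed, all lower in SA-H, and the median change was −0.41 (−0.61 with SA-H array 4 left out, −0.27 with SA-H array 5 left out). Isca1, an assembly protein of iron-sulfur clusters, stood at 1.81, 2.72 and 3.01 in SA-H and 3.97, 3.52 and 3.86 in MOD. All SA-H arrays were below all MOD arrays, array 4 the most, and the change was −1.27 (SE 0.35, limma adjusted p = 0.114). Nfs1, the cysteine desulfurase that supplies the sulfur, changed by −1.40 (limma adjusted p = 0.152) and was named after its values were seen. Without SA-H array 4, Isca1 (−0.92), Nfs1 (−0.86) and Snx3 (−0.93) were under a fold of 2. In the value table Nfs1 changed by −0.22. Lyrm4 (−0.76) and Slc25a28 (0.42), for mitoferrin 2, did not pass.

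None of the 12 tested genes of iron export and heme recycling passed (0 of 12, 1 with an unadjusted p under 0.05 in limma), and their median change was 0.02. Slc40a1 encodes ferroportin, the iron exporter. It stood at 3.72, 4.72 and 5.22 in SA-H and 5.58, 5.17 and 5.37 in MOD. SA-H array 4 was the lowest, array 6 reached the MOD range, and the change was −0.82 (SE 0.40, limma adjusted p = 0.256). Hmox1, which opens the heme ring and frees its iron, read 1.93, 3.22 and 3.42 in SA-H and 3.65, 3.16 and 3.37 in MOD, and its change was −0.54 (limma adjusted p = 0.451). Spic, a factor of red pulp macrophages, changed by 0.86 (SE 0.26, limma adjusted p = 0.13), with all SA-H arrays above all MOD arrays. Of the 11 tested macrophage markers 1 passed the limits, lower in SA-H, and their median change was −0.70. With 1 array left out, 5 passed without SA-H array 5, 4 without SA-H array 6 and 0 without MOD array 1, 2 or 3. Without SA-H array 4, 1 passed and the median change was −0.23. The marker that passed with no array left out was tested only through MOD, the group in which it was higher. Where all 6 arrays had to be above background, 9 macrophage markers were tested, 0 passed and their median change was −0.59. The centred median of the 11 markers was −1.19, 0.03 and 0.14 on SA-H arrays 4, 5 and 6 and 0.60, 0.45 and 0.24 on the MOD arrays. SA-H array 4 thus stood lowest for ferroportin, for Hmox1 and for this marker list, and the part of the markers in the gene values was not tested.

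Of 9 tested genes of iron sensing and hepcidin control, 0 passed and 0 had an unadjusted p under 0.05 in limma, with a median change of −0.37 (−0.18 without MOD array 3 or SA-H array 5). Of the 9 changes 6 were negative and 3 positive, the largest being 1.25. Tfr2, the second transferrin receptor, changed by −0.45 (limma adjusted p = 0.446). Smad5 (−0.63) and Bmpr1a (−0.54), of the signalling chain that drives hepcidin in liver, were lower on all SA-H arrays than on any MOD array. The groups of 3 of the 9 genes did not overlap, near the share of 32.7% over all tested genes. Of 7 other mRNAs described with an iron responsive element, Cdc14a, for a phosphatase of cell division, was the 1 that passed. Its log2 level was 2.63, 1.72 and 2.18 in SA-H and 0.25, 0.80 and 0.60 in MOD, and its change was 1.62 (SE 0.31, limma adjusted p = 0.0809). In the deposited value table it changed by −0.09. The median of this list was −0.09.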

How the data were processed

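Spleen RNA labelled with Cy3 was read on 6 one-colour Agilent mouse arrays, each with 43020 spots besides controls. The authors read the intensity of each spot with Agilent Feature Extraction 11.0.1.1. Per the file headers, this software took off the background, evened out trends across the slide and set very low values to a small positive surrogate, and did not scale arrays to each other. The flags of 0 or 1 for background, saturation and outliers come from the same deposited files. How the authors normalized or filtered the arrays is not given in the sources used here. The paper names an analysis of variance with Dunnett's test for its data and does not say whether that covers the arrays. Their deposited value table is on a log2 scale, as judged from its range, and each column has a median of 5.34.

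From the processed signal, log2 levels were computed with the array's 75th percentile set to 0, without outlier spots and with replicate spots averaged per probe. Symbols were given to 27234 of 39429 probes (69.1%) through the RefSeq accession, and member probes were found by that name. A probe was kept where 1 group had it well above background throughout (16901 probes), and the brightest kept probe stood for its gene. The comparison used limma 3.58.1 (R 4.3.3) with Benjamini-Hochberg adjustment over 14474 genes and unnamed targets, and all changes are SA-H minus MOD on the log2 scale. The limits of a fold of 2 and a p of 0.05 were taken from the study's plot of the arrays, whose axis names a q-value; the unadjusted p is used here. The members, the lists and the limits were chosen with earlier results of these data known. Apart from the 10 members, the text names up to 4 genes of each iron list with the smallest p, 6 genes of wide interest (Slc40a1, Hmox1, Ncoa4, Fbxl5, Slc25a28 and Tfr2) and at most 2 genes of a marker list; not every gene under this rule is reported here. The number of arrays limits the precision. The method was tested on simulated data. Other steps used Python 3.11.15.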

Additional observations from a re-analysis of the deposited data

How the results depend on the processing

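Of the 8 genes, Aco1 was higher in SA-H in each setting that tested it, and Fth1 in each on the scanner values. The others lay near 0 and changed sign. With the deposited value table the changes were −0.20 for Fth1, −0.17 for Ftl1, −0.54 for Slc11a2 and −2.03 for Slc25a37, 3 member genes passed the limits (Tfrc, Slc25a37 and Steap3, but not Aco1 at 0.40), the member median was −0.37 and 23.3% of calls were higher in SA-H (60.6% on the scanner values). Scaling by the array median shifted all genes to −0.36 and gave −0.14 for Ftl1, −0.25 for Slc11a2, −0.31 for Slc25a37, −0.31 for Trf, a member median of −0.28, and 3158 called genes, 31.6% of them higher; these 4 members stood above that shift. Quantile normalization gave −0.34 for Ftl1, −0.49 for Slc25a37 and −0.081 for Trf. Normexp background correction gave −0.30 for Slc25a37 and −0.056 for Trf. The mean of kept probes gave −0.44 for Ftl1, −0.42 for Slc25a37 and −0.43 for Trf. Scan day as a block, to which SA-H array 5 adds nothing, gave 0.033 for Steap3 and 0.024 for Tfrc. An analysis of variance called 1135 genes and 0 members, and requiring all 6 arrays above background called 0 members, since Aco1 was then not tested. Leaving out MOD array 3 and SA-H array 4 together, added after seeing the data, gave −0.12 for Ftl1, −0.034 for Slc11a2 and −0.49 for Slc25a37, with 4 calls among the other iron genes. The cause of these shifts was not tested.

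Genes with an adjusted p under 0.05 numbered 0 here, 211 with normexp, 1094 with median scaling, 1075 with the scan day block and 1779 in the value table. Leaving out 1 array at a time gave −0.27 to 0.12 for Tfrc, −0.20 to 0.17 for Trf, −0.10 to 0.20 for Slc11a2, −0.58 to 0.12 for Steap3, −0.44 to 0.44 for Slc25a37, 0.48 to 1.07 for Fth1, 0.02 to 0.38 for Ftl1 and 2.77 to 4.73 for Aco1. It gave 1 to 2 member calls, a member median of −0.04 to 0.29, 5 (without SA-H array 4) to 11 calls among the other iron genes and 1228 (without SA-H array 4) to 2466 calls in all. No paired analysis was possible because the labels number the arrays 4 to 6 in SA-H and 1 to 3 in MOD and share no number.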
